A study of Homo sapiens with 3 samples.

Results

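The BCL2 family decides whether the outer mitochondrial membrane of a stressed cell stays intact. Pro-survival members such as BCL2L1 and MCL1 hold the pore-forming effectors BAX and BAK1 in check. BH3-only members, which share with the rest of the family only a short helix called BH3, bind the pro-survival members or the effectors and tip the balance towards release of cytochrome c and caspase activation. Several genes of the family are spliced into forms that differ in these helices, so that the same gene can give products of unlike activity.

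The 10 genes described here are the pro-survival genes BCL2L1 and MCL1, the effectors BAX and BAK1, and the BH3-only genes BCL2L11, BBC3, BMF, PMAIP1, BAD and BID. They were chosen by name, with earlier results of these data known. Every row of the authors' deposited table whose RefSeq accession belongs to one of them was taken. This gave 20 transcripts of 10 genes, among 20104 transcripts and 12582 named genes in all. BAX had 5 transcripts, the genes BCL2L1, MCL1, BCL2L11, BBC3, BAD and BID had 2 each, and BAK1, BMF and PMAIP1 had 1 each.

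Total RNA came from SW480, an established human colon adenocarcinoma line, 48 hours after transduction with short hairpin RNA (shRNA). There were 2 libraries of cells with control shRNA (shControl) and 1 library of cells with an shRNA against RBMS1 (shRBMS1, hairpin TRCN0000074936), which encodes a protein that binds RNA at sequence rich in A and U. All cells were of this line and grew in the same medium with serum. The knockdown rests on 1 hairpin and 1 library, and the sources used here do not say if the control libraries share a hairpin. The deposited value is a log2 fold change of shRBMS1 over shControl for each transcript, so a value of 1 is a doubling and −1 is a halving. Levels in single libraries were not analysed here. The sequencing depth is therefore unknown, no replicate error stands beside any value, and no difference was tested. The direction of the ratio was read from the targeted gene itself, whose transcripts the authors' deposited table lists at −1.36 and −1.62, so these signs do not check the labels.

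The BH3 helix is what all members share. In the reading frames of the linked GENCODE transcripts, each member gene held a core made of a leucine codon, 3 codons of any kind, a codon for glycine, alanine or serine, and an aspartate codon. The stretches below show how the same core is spelled in each gene, 5′ to 3′ on the coding strand, with the core of 6 codons in capitals and 3 codons on each side in lower case. In hg38 they lie at chr20:31721925-31721960 (minus strand), chr1:150578868-150578903 (minus), chr19:48955778-48955813 (plus), chr6:33575390-33575425 (minus), chr2:111150094-111150129 (plus), chr19:47226582-47226617 (minus), chr15:40104198-40104233 (minus), chr18:59902664-59902699 (plus), chr11:64271625-64271660 (minus) and chr22:17739418-17739453 (minus), each within 1 coding exon, in the order printed.
BCL2L1: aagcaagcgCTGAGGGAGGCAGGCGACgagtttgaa
MCL1: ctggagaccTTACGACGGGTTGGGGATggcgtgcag
BAX: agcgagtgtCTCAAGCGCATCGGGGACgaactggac
BAK1: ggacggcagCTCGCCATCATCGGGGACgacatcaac
BCL2L11: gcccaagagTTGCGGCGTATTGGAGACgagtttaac
BBC3: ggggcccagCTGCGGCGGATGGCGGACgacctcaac
BMF: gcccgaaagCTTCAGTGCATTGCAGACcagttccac
PMAIP1: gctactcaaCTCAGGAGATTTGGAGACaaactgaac
BAD: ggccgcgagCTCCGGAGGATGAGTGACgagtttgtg
BID: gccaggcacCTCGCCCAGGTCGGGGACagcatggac

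The pattern alone is common, since 37.4% of 11326 genes with a linked reading frame hold at least 1 match. The frame of BID holds 2 matches, and the one printed, at codon 90, is its known BH3 helix. Of the 20 member transcripts, 17 keep the printed core in the frame of their linked GENCODE transcript. The other 3 are NM_138763 and NM_001291429 of BAX, which skip the exon that encodes it, and NM_001244570 of BID, whose frame starts too late to include it.

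Across the family, most transcripts differed little between the arms and a minority stood far from 0. Of the 20 transcripts, 2 stood at 1 or above on the log2 scale, against 8.27% of all 20104 transcripts, and 6 stood at −1 or below, against 7.86% of all. The other 12 lay within 1 of 0. As the genes were chosen with earlier results of these data known, these counts are a description only. In the authors' deposited table the median of the 20 transcripts was 0.03, beside 0.02 over all transcripts, and their values ran from −7.94 for BMF to 4.21 for a transcript of BBC3.

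The lower values were spread over 6 genes, namely BCL2L1, BAX, BCL2L11, BBC3, BMF and BAD, with 1 transcript each. The higher values belonged to BAX and BBC3. So both genes with a transcript beyond 1 upwards also had one beyond 1 downwards. MCL1, BAK1, PMAIP1 and BID had no transcript beyond 1 in either direction.

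**Figure D1:**
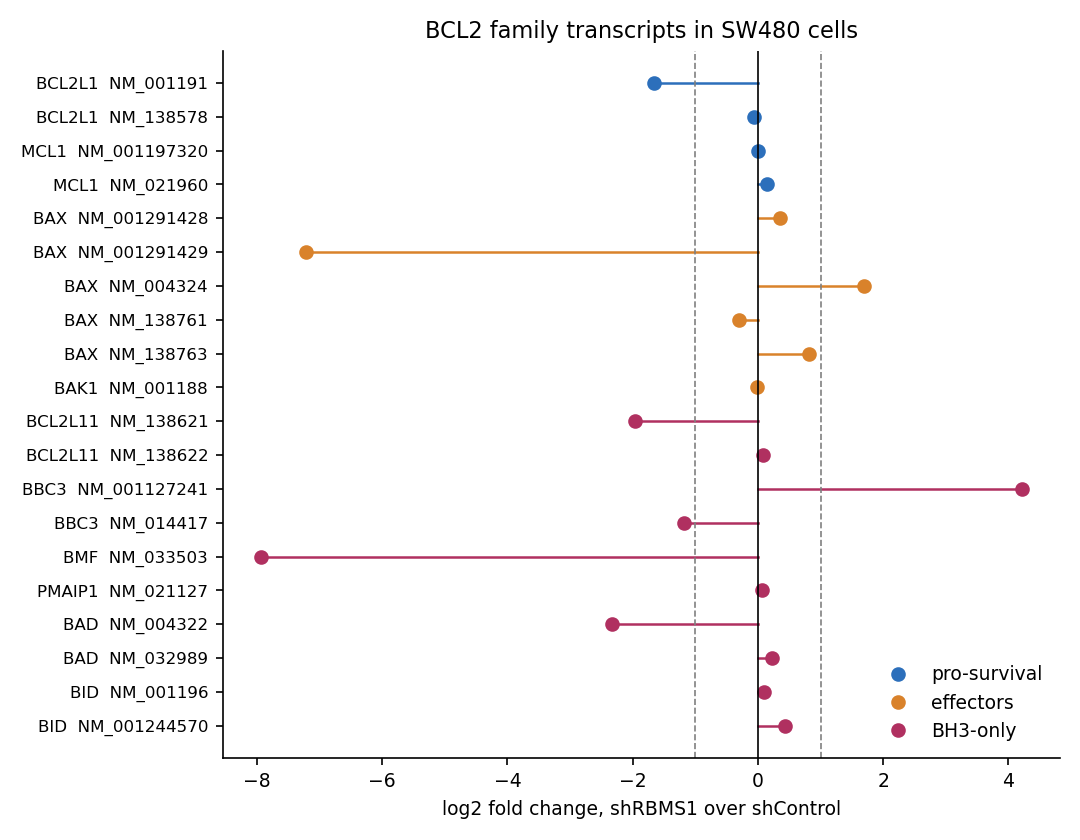
Log2 fold change of shRBMS1 over shControl (horizontal axis) for each of the 20 BCL2 family transcripts, coloured by role, with dashed lines at −1 and 1. The values come from 1 knockdown library against 2 control libraries and carry no error bars; 6 points lie beyond −1, 2 lie beyond 1, and BMF at −7.94 and a BAX transcript at −7.22 stand farthest out.

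Large values were more frequent where a gene had several transcripts in the table. Over genes with 1 transcript there, 3.31% of 7985 transcripts were higher by at least 1 and 3.23% were lower. Over genes with 2 or more, 11.6% of 11833 transcripts were higher and 11.0% were lower. Among the members, 17 transcripts came from the 7 genes with several, of which 2 were higher and 5 lower. The remaining 3 came from genes with 1 transcript, of which BMF was lower and none was higher. Transcripts of 1 gene share most of their reads, so they are not independent measurements, and the rule by which the authors' tools divided reads among them is not given here.

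The pro-survival gene BCL2L1 lies on chromosome 20 at 31664452 to 31723963 (hg38). Its transcript NM_138578 encodes the long form of 233 codons, known as BCL-xL, which protects cells, and NM_001191 encodes the short form of 170 codons, BCL-xS, which is known to promote death. The authors' deposited table had the long form at −0.06, or 96.2% of control, and the short form at −1.66, or 31.7% of control. The long form was thus close to the control level and the short form well below it, a spread of 1.60 on the log2 scale. Over all 2943 genes with 2 transcripts in the table the median spread was 0.70, with quartiles of 0.29 and 1.41.

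Both forms of BCL2L1 use the same last exon, and the short form joins it to a splice donor 189 coding bases upstream of the one used by the long form. The junctions are shown because they are nearly all that marks the short form, with the end of the second exon in lower case and the start of the last exon in capitals. The donor exon ends at base 31721655 for the long form and at 31721844 for the short form on the minus strand, and the last exon starts at 31666086 for both.
BCL-xL, NM_138578: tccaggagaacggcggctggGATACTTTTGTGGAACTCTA
BCL-xS, NM_001191: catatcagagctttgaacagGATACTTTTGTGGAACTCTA

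Every one of the 2383 bases of the short form lies within the exons of the long form, whereas the long form has 227 bases of its own. Of reads on these 2 transcripts, only those that cross the printed junction are particular to the short form.

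MCL1, a short-lived pro-survival protein on chromosome 1 at 150574558 to 150579610, had the smallest spread of the 7 genes with several transcripts. The authors' deposited table had NM_021960, the full form of 350 codons, at 0.15, or 111% of control. It had NM_001197320, which removes part of the first exon and leaves 197 codons, at −0.0027, or 99.8% of control. This second form keeps the BH3 core and is known as MCL-1ES, which promotes death. The spread of 0.15 between the forms was wider than in only 13.2% of genes with 2 transcripts.

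The effector BAX, on chromosome 19 at 48954875 to 48961798, had 5 transcripts that spread over 8.91 on the log2 scale. NM_138761 encodes BAX-alpha, the classical effector of 192 codons, and the authors' deposited table put it at −0.30, or 81.4% of control. NM_001291428 was listed at 0.35, or 127% of control, by the authors' deposited table. These 2 accessions link to the same GENCODE transcript, so what separates them in sequence was not resolved here. Both lay within 1 of 0, on opposite sides of it.

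NM_004324, which encodes BAX-beta of 218 codons, keeps the last intron and was the highest, with 1.69 (322% of control) in the authors' deposited table. Among the linked GENCODE transcripts of BAX, only its own had bases not found in the others, 434 of 1358. Forms linked to the same GENCODE transcript could show none by this count. The authors' deposited table had NM_138763, which lacks the third exon and with it the BH3 core, at 0.81, or 175% of control. It had NM_001291429, which lacks the second and the third exons, at −7.22, or 0.671% of control.

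The lowest value belongs to a model of 458 bases, all of them shared with other BAX transcripts. The junctions that set the BAX forms without the BH3 core apart start from the same donors as those of the full form. The coding one is shown beside the full form, with the second exon in lower case and the exon that follows in capitals. The second exon ends at base 48955599 on the plus strand, and the joined exon starts at 48955687 in the full form and at 48956198 where the BH3 exon is skipped.
BAX-alpha and BAX-beta, NM_138761 and NM_004324: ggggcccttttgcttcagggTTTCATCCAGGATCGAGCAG
BAX without the BH3 exon, NM_138763: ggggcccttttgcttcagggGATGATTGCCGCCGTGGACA

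Of 142 genes with 5 transcripts in the table, 86.6% had a smaller spread than BAX, and their median spread was 2.81. BAK1, the other effector, lies on chromosome 6 at 33572552 to 33580276 and forms pores in parallel with BAX. The authors' deposited table had its single transcript at −0.02, or 98.8% of control.

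Among the BH3-only genes, BCL2L11 encodes BIM, which binds all pro-survival members, and lies on chromosome 2 at 111120914 to 111168445. The authors' deposited table had NM_138621, the extra-long form BIM-EL of 198 codons, at −1.97, or 25.5% of control. The authors' deposited table had NM_138622, a form of 169 codons with a different end, at 0.09, or 106% of control. Both keep the BH3 core, and they part just after it. The longer form joins the third exon, which ends at base 111150147 on the plus strand, directly to the last exon at 111164133, which encodes the tail that anchors BIM in membranes. The other form inserts an exon that holds its stop codon. The junction of the longer form is shown because only 2 of its 5086 bases are its own, with the third exon in lower case and the last exon in capitals.
BIM-EL, NM_138621: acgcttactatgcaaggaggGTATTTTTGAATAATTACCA

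BBC3 encodes PUMA, a strong inducer of cell death and a classical p53 target, and lies on chromosome 19 at 47220824 to 47232860. Its 2 transcripts start at different first exons and went opposite ways. The authors' deposited table had NM_014417, which encodes PUMA-alpha of 193 codons, at −1.19, or 44.0% of control. It had NM_001127241, which encodes PUMA-beta of 131 codons, at 4.21, or 1854% of control. Only 145 of all 20104 transcripts stood as high or higher.

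Both PUMA forms keep the BH3 core and share the last 2 exons. Their spread of 5.40 exceeded that of 95.2% of genes with 2 transcripts. Each also has a stretch of its own, 555 bases in NM_014417 and 255 in NM_001127241. The junctions into the shared exon that encodes BH3, which starts at base 47226754 on the minus strand, are shown with the form-specific exon in lower case and the shared exon in capitals. The form-specific exon ends at base 47228158 in PUMA-alpha and at 47232515 in PUMA-beta.
PUMA-alpha, NM_014417: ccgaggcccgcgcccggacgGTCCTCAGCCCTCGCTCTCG
PUMA-beta, NM_001127241: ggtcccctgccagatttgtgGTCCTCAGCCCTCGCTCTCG

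**Figure D2:**
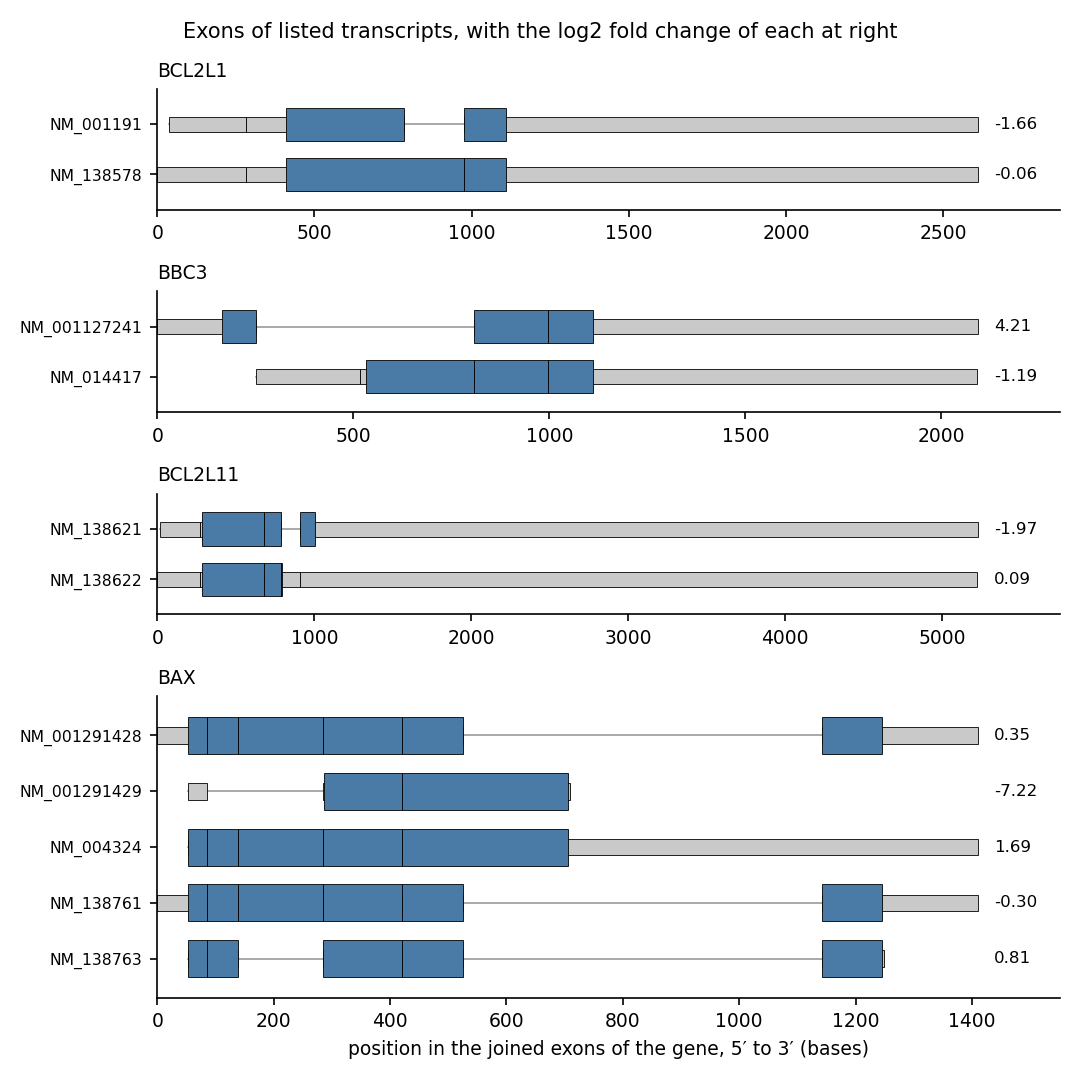
Exons of the listed transcripts of BCL2L1, BBC3, BCL2L11 and BAX, laid end to end from 5′ to 3′ (horizontal axis, bases, a scale for each gene), with coding parts as tall blue boxes, untranslated parts as low grey boxes and lines where a transcript skips sequence. The number at the right of each row is its log2 fold change of shRBMS1 over shControl; in BBC3 the form with the upstream first exon is at 4.21 and the other at −1.19, and the BAX form without the second and the third exons is at −7.22.

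BMF, a BH3-only protein held on the actin and myosin skeleton until released by stress, lies on chromosome 15 at 40087890 to 40108879 and had the lowest value of the family. Its single transcript in the authors' deposited table, NM_033503 of 184 codons, was at −7.94, or 0.407% of control. Of all 20104 transcripts 161 were as low or lower. The RefSeq table holds 24 curated transcripts of BMF, of which only this 1 was matched in the authors' deposited table. Because no level stands beside the ratio, a level near 0 in 1 arm and a large fall cannot be told apart. This holds also for the low BAX transcript and, for a large rise, for PUMA-beta at 4.21. It holds as well for values far from 0 in the genes described below.

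Values of this size lie in a second, lower hump of the table, since counts rise again towards its low end. In bins of 0.5, the authors' deposited table holds 16 transcripts between −5.5 and −5, 27 between −8 and −7.5, where BMF lies, and 47 between −9 and −8.5. The low BAX transcript lies in the same hump. Counts rise again towards the high end too, with 6 transcripts between 6 and 6.5 and 18 between 9.5 and 10.

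**Figure D3:**
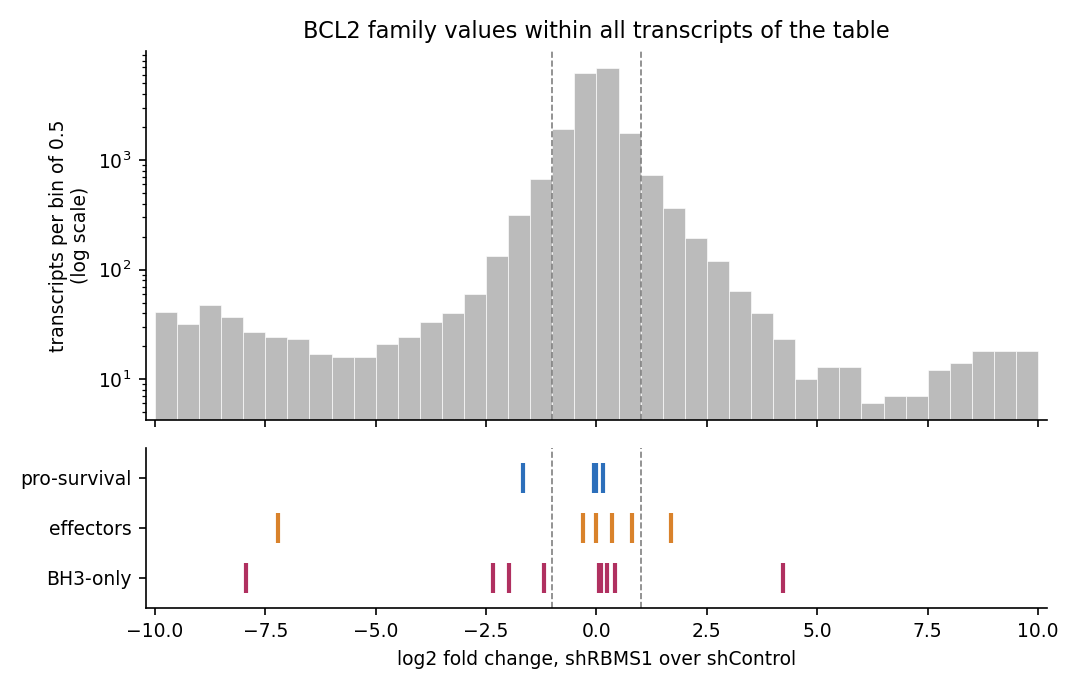
Top, number of transcripts of the whole table (log axis) in bins of 0.5 of the log2 fold change of shRBMS1 over shControl; bottom, each BCL2 family transcript as a tick on the same axis, by role, with dashed lines at −1 and 1. BMF at −7.94 and BAX at −7.22 fall in the low hump, while the pro-survival ticks lie between −1.66 and 0.15.

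PMAIP1 encodes NOXA, which binds MCL1, and lies on chromosome 18 at 59899996 to 59904305. The authors' deposited table had it at 0.06, or 104% of control. So NOXA and its main partner MCL1 both stood within 0.15 of 0.

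BAD, which growth factor signalling keeps phosphorylated and bound to 14-3-3 proteins, lies on chromosome 11 at 64269828 to 64284704. The authors' deposited table had its transcript NM_004322 at −2.33, or 19.8% of control. It had NM_032989 at 0.23, or 117% of control. Both encode the same 168 codons and differ before the start codon, where NM_032989 removes an intron of 254 bases. The low and the near-control value thus belong to 1 protein.

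BID, which caspase 8 cleaves to carry the death receptor signal to mitochondria, lies on chromosome 22 at 17734138 to 17774665. The authors' deposited table had NM_001196, the full form of 195 codons, at 0.10, or 107% of control. It had NM_001244570, with 99 codons and no BH3 core, at 0.43, or 135% of control. The spread of 0.33 was wider than in 28.2% of genes with 2 transcripts.

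Set side by side, pro-survival and pro-apoptotic transcripts had medians close to each other and to 0. In the authors' deposited table the 4 pro-survival transcripts had a median of −0.03, with none higher by at least 1 and 1 lower. The 16 pro-apoptotic transcripts had a median of 0.07, with 2 higher and 5 lower, so the medians differed by 0.10. Within them, the 6 effector transcripts had a median of 0.16 with 1 on each side. The 10 BH3-only transcripts had a median of 0.07, with 1 higher and 4 lower. Beside these class counts, 8.27% of all transcripts were higher by at least 1 and 7.86% were lower. Over genes with 2 or more transcripts the shares were 11.6% and 11.0%. A difference between classes was not tested. All 4 pro-survival values fell inside the range of the 16 pro-apoptotic ones, and a range widens with the number of values. With the death-promoting BCL-xS and MCL-1ES counted as pro-apoptotic, also a choice made after the values were seen, the pro-survival median was 0.05 and the pro-apoptotic one 0.03.

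The comparison depends on which transcript stands for a gene. With the transcript of the longest reading frame for each gene, again chosen after the values were seen, the pro-apoptotic median was −0.60 and its difference from the pro-survival one was −0.65. In that choice BH3-only genes had a median of −1.58 and effectors 0.84. The BH3-only value rests on BIM-EL, PUMA-alpha, BMF and one of the 2 BAD transcripts that encode the same protein, the low one. The 2 BAD frames are equally long, and the low one, at −2.33, was taken only by its transcript number. With the other, at 0.23, the pro-apoptotic median would lie between BAK1 at −0.02 and NOXA at 0.06. When each gene was represented by its transcript closest to 0, the pro-apoptotic median was 0.02 and its difference from the pro-survival one was 0.05. With the median of each gene's transcripts the difference was 0.41, and with means over transcripts it was −0.42, so its sign changed with this choice.

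Taking the median of a gene's transcripts, 3 of the 10 genes lay beyond 1. BBC3 was higher by at least 1, at 1.51, against 3.95% of all 12582 genes. BMF at −7.94 and BAD at −1.05 were lower by at least 1, against 3.96% of all genes. The value of BBC3 is the midpoint of 2 transcripts on opposite sides of 0, and that of BAD the midpoint of −2.33 and 0.23. BCL2L11 at −0.94 and BCL2L1 at −0.86 lay just inside the threshold, each with 1 transcript near 0 and 1 well below.

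The RNA-binding protein targeted here recognises AUAUA, so the matching letters ATATA were counted on the transcript strand in the 3′ UTR of the linked transcripts, overlaps included. They occurred in 5 of the 10 genes and in 9 of 19 member transcripts with a 3′ UTR. For comparison, 53.3% of all 17770 transcripts with a linked 3′ UTR hold them at least once. PMAIP1 and BCL2L11 had 8 each, MCL1 2, and BCL2L1 and BID 1 each. Of the 6 low transcripts 2 had the letters, and neither of the 2 high ones did. The low BAX transcript, one of the 6, has no linked 3′ UTR and could not hold them. PMAIP1, with 8, was at 0.06, and BMF, with none in a 3′ UTR of 3894 bases, was at −7.94. The forms of BCL2L11, at −1.97 and 0.09 by the authors' deposited table, carry the same count of 8. Windows around single matches are shown for PMAIP1 (chr18:59903480-59903504, plus strand), MCL1 (chr1:150576665-150576689, minus strand) and BCL2L1 (chr20:31664712-31664736, minus strand), with the letters in capitals.
PMAIP1: tgaacattcaATATAataaaagaac
MCL1: taaaaattgtATATAtttttacaga
BCL2L1: tgtgaagatgATATActatttttgt

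The other close family members with a value each had 1 transcript, near 0. The authors' deposited table had the pro-survival BCL2L2, or BCL-w, at 0.13. The authors' deposited table had the effector-like BOK at −0.21 and the BH3-only BIK at −0.01. No value was matched to BCL2, BCL2A1, BCL2L10, HRK, BCL2L14 or BNIP3.

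Among the more distant BCL2-like genes, 8 of 10 had a value, with a median of 0.09, 1 gene higher by at least 1 and none lower. BCL2L13, a mitochondrial protein of mitophagy, was the one beyond 1, at 1.15, and the authors' deposited table spread its 5 transcripts from −7.56 to 1.31. BCL2L12 had transcripts from −0.41 to 1.75 in the authors' deposited table. The mitophagy receptor BNIP3L was at −0.16, BECN1, a core autophagy protein with a BH3 helix, at −0.0039, and the BAX-binding MOAP1 at −0.23 in the authors' deposited table. The authors' deposited table had transcripts of BNIP1 at 0.05 and 0.61, BNIP2 at 0.20 and BCL2L15 at −0.05.

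Proteins that tether BCL2 family members or set their stability include dynein light chains for BIM and BMF, 14-3-3 proteins for BAD, ubiquitin enzymes for MCL1 and channels of the VDAC family for BAK1. All 21 listed genes had a value, with a median of 0.04, 1 higher by at least 1 and 1 lower. The channel VDAC3 was highest at 1.80, midway between the 0.18 and 3.42 that the authors' deposited table gives its transcripts. PPP3CA, a calcineurin subunit that dephosphorylates BAD, was lowest at −5.02, midway between −9.79 and −0.26 there.

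Downstream of the mitochondria, the apoptosome and intermembrane list had 8 of 8 genes with a value and a median of 0.14. No gene of it lay beyond 1 by the median of its transcripts, and the same measure is used for the next 2 lists. From the authors' deposited table, OPA1, which shapes the inner membrane, was highest at 0.88 (transcripts from −0.32 to 1.23), and the nuclease ENDOG lowest at −0.31. Caspases had 8 of 9 with a value, a median of −0.03 and none beyond 1, with CASP10 lowest at −0.77. Caspase inhibitors had 7 of 9 with a value, a median of 0.09 and none beyond 1, from CFLAR at −0.26 to the ubiquitin ligase BIRC2 at 0.89 (transcripts at 0.20 and 1.57). Single transcripts did lie beyond 1. In the order of these lists, 2 of 17, 2 of 17 and 1 of 15 transcripts were higher by at least 1, beside 8.27% of all transcripts. Lower by at least 1 were 2, 1 and 0, beside 7.86% of all.

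Upstream, death receptors, ligands and adaptors had 12 of 13 with a value and a median of −0.0053. By the authors' deposited table TNFSF10, the ligand TRAIL, was lower by at least 1, at −1.32, and the ligand FASLG was highest at 0.93. Transcription factors and cofactors that drive BCL2 family genes had 16 of 17 with a value and a median of −0.14. FOXO4, of the FOXO factors that induce BIM, was higher by at least 1, at 1.14, and the authors' deposited table gives its transcripts −1.32 and 3.61. TP73, a relative of p53, was lowest at −0.77. Over the 7 pathway lists, 3 of 80 genes were higher by at least 1 and 2 were lower, beside the 3.95% and 3.96% of all genes given above. Counted by transcript, 18 of 149 were higher by at least 1 (12.1%) and 10 were lower (6.71%), beside 8.27% and 7.86% of all transcripts. The lists mix genes with 1 transcript, where these shares were 3.31% and 3.23%, and genes with 2 or more, where they were 11.6% and 11.0%.

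**Figure D4:**
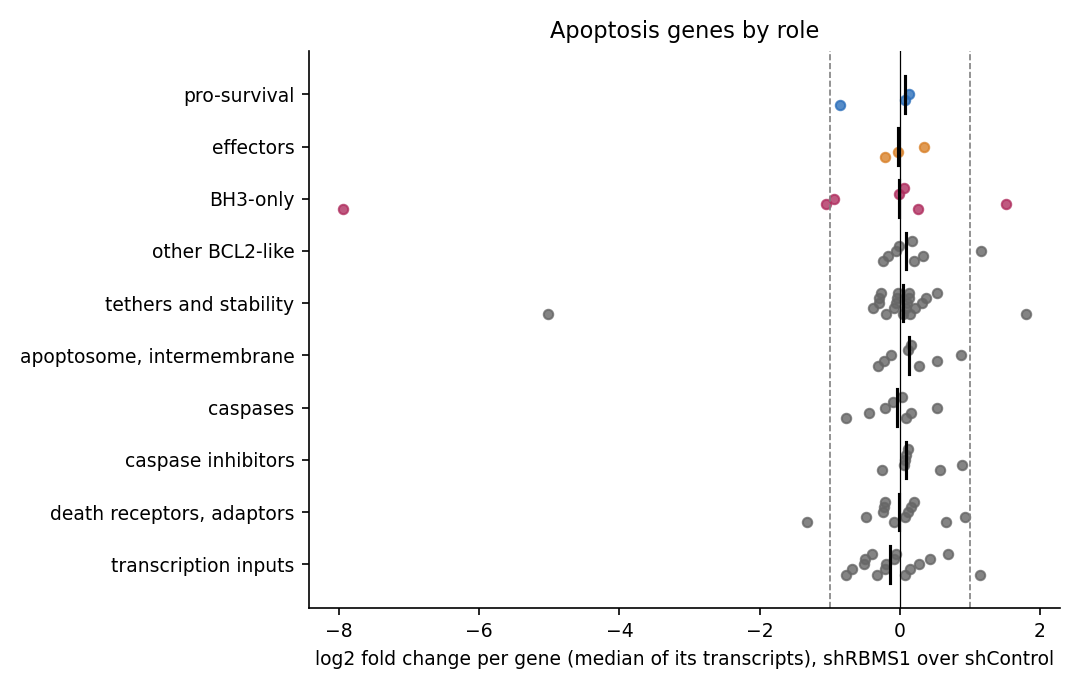
Log2 fold change of shRBMS1 over shControl per gene, as the median of its transcripts (horizontal axis), for genes of the apoptosis lists in rows; each point is a gene, black bars are list medians, coloured rows hold BCL2 family members with their close relatives, and dashed lines mark −1 and 1. List medians lie between −0.14 and 0.14, and BMF at −7.94 and PPP3CA at −5.02 stand apart from all other genes.

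Markers of other cell types were scarce in the table. No fibroblast marker of 9 had a value, endothelial markers 2 of 8, and leukocyte markers 3 of 10, against 8 of 12 for colon epithelium. The authors' deposited table had the leukocyte markers HLA-DRA at 1.31, CD68 at −0.54 and LYZ at −0.68. The 8 epithelial markers had a median of −0.48, from VIL1 at −2.33 to KRT8 at 0.05, whose transcripts reach 1.82. KRT18, at −1.09, is midway between −2.17 and −0.02. Their part in the BCL2 family values was not tested.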

How the data were processed

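RNA of 2 shControl libraries and 1 shRBMS1 library of SW480 cells was depleted of ribosomal RNA and sequenced, per the labels' protocols. STAR 2.5, Cufflinks, Cuffdiff and hg38 are named in the submitters' processing notes, without roles, settings or filters. The authors deposited 1 table of log2 fold changes for 20104 RefSeq transcripts. Its header gives neither base nor direction. Base 2 was read from repeated values: among values seen 3 or more times, 20 transcripts sat at a distance of 1 (tolerance 1.5e-05), 4 at ln 2 and 5 at log10 of 2. Direction was read from RBMS1. If it were the other way, every sign would turn.

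Gene names came from RefSeq (GRCh38.p14), which matched 19818 transcripts (98.6%). The other 286 were left out, and none links to a member. Exons, reading frames and sequences came from GENCODE 29 through its RefSeq links, whose ends can differ from RefSeq. Percent of control is 100 times 2 to the power of the deposited value. Values at or beyond 1 were counted without a test, since 1 knockdown library leaves no replicate check. The counting was checked on simulated data. Python 3.11.15, numpy 2.4.6, pandas 2.3.3 and matplotlib 3.10.9 were used.

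The members, the lists and their roles were chosen with earlier results of these data known. Named genes were RBMS1, all members with all transcripts, other BCL2 family genes, and the highest, the lowest and any gene beyond 1 of each pathway list. Cell type markers were named after their values were seen. The highest gene of the caspase list is not reported here. Alternatives were other thresholds, other values per gene, coding transcripts, values within 5 of 0, centring and other class memberships.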

Additional observations from a re-analysis of the deposited data

How the results depend on the processing

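With a threshold of 2 in place of 1, 1 member transcript was higher and 3 were lower. The shares of all transcripts given above hold for a threshold of 1, and none was computed at 2. With means over transcripts in place of medians, effectors stood at −0.78, BH3-only members at −0.83, pro-apoptotic members at −0.81 and pro-survival members at −0.39, which turned the difference between the last pair to −0.42. With the longest reading frame of each gene, a choice added after the data were seen, effectors stood at 0.84, BH3-only members at −1.58, pro-apoptotic members at −0.60 and the difference from pro-survival members at −0.65. Of the gene values, BAX moved to −0.93 with the mean of its transcripts, −0.30 with the least changed and 1.69 with the longest frame. BCL2L1 moved to −0.06 with either of the last choices, BCL2L11 to 0.09 and −1.97, and BAD to −2.33 with the longest frame. The frames of the BAD transcripts at −2.33 and 0.23 are equally long, and the first was taken by its transcript number. The class values given for the longest frame depend on that pick. BBC3 changed sign to −1.19 with its least changed transcript, which is also that of the longest frame, and BAD to 0.23 with its least changed transcript. Of the genes in the 7 pathway lists, 0 were higher by at least 1 when each gene took its transcript closest to 0. With a threshold of 0.58, 8 were higher and 5 lower. The shares of all genes given above hold for a threshold of 1 on medians of transcripts. None was computed under these settings, so these counts have no share beside them. Apart from gene values, 82 medians, class differences and counts under the alternatives stayed within 0.58 on the log2 scale, or within 1.5 times for counts. The turn of the difference to −0.42 with means is among these 82. The margin of 0.58 is wider than the main class and list medians, so it does not show that a sign was kept. With the median of each gene's transcripts, BH3-only members went from 0.07 to −0.44 within it. Coding transcripts alone kept all 20 member transcripts, so that alternative could not change their values. Leaving out a replicate was not run, since the table holds 1 ratio for all libraries. No paired analysis was possible because the values used here are a ratio over all libraries and not values per library.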
